A study of Mus musculus with 76 samples.

Results

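Cytosolic glutathione S-transferases join the tripeptide glutathione to electrophilic compounds, among them xenobiotics and the reactive aldehydes left by lipid peroxidation, so that the products can be exported and, in kidney, processed to mercapturates. The genes measured here are Gsta1, Gsta2, Gsta3 and Gsta4 of the alpha class, Gstm1, Gstm2, Gstm3 and Gstm5 of the mu class, Gstp1 of the pi class and Gstt1 of the theta class. They were taken as a list of gene symbols, chosen with earlier results of these data known. All 10 were found among the 54232 genes of the count table. Several of these genes are textbook targets of the transcription factor NRF2 (Nfe2l2), which binds antioxidant response elements, and the enzymes differ in what they act on: alpha-class proteins also reduce organic peroxides, Gsta4 acts mainly on the lipid aldehyde hydroxynonenal, and Gstp1 also binds signalling kinases.

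The RNA-seq libraries were made from the heart, the kidney and the visceral fat (VFAT) of male Fox Chase SCID mice (CB17/Icr-Prkdcscid/IcrlcoCrl) aged 12 weeks, a strain without working T and B lymphocytes, in a study of uremic cardiomyopathy and adipose Na/K-ATPase signalling. There were 5 arms per tissue. The arms were partial nephrectomy with transplanted cells labelled Lenti-adipo-NaKtide (NaKtide cells), partial nephrectomy with Lenti-adipo-scrambled cells (scrambled cells), partial nephrectomy with Control Cells (control cells), partial nephrectomy without cells (PNx), and sham surgery without cells (Sham). NaKtide is a peptide that blocks Src signalling through the Na/K-ATPase. The 3 cell arms therefore carry the surgery as well, and no sham-operated arm received cells. The labels do not give the source of the transplanted cells or the promoter behind the lentiviral insert, and they do not say whether the libraries of an arm came from separate animals, so p-values measure the spread between these libraries. After the libraries sequenced under a repeated number were summed there were 74 samples, 5 per arm and tissue except 4 for VFAT scrambled cells.

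Reads of 50 bases cannot always tell these genes apart, which bears on every Gsta1 and Gsta2 value below. The coding sequences of Gsta1 (672 bases) and Gsta2 (669 bases) were 97.5% identical, with 14 substitutions and 3 gap columns, and 5 identical runs at least as long as a read covered 556 bases. A stretch of 60 coding bases is shown, positions 449 to 508 counted from the first base of the start codon. It was picked as the stretch of that length without a gap that holds the most substitutions. The first 196 coding bases are identical. Capitals mark the 5 positions at which the genes differ (chromosome 9, GENCODE M21 transcripts).
Gsta1: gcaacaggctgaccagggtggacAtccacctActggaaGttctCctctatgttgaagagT
Gsta2: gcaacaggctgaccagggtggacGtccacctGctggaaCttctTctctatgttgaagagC
Gsta1 lies at chr9:78230656-78242684 on the plus strand and Gsta2 at chr9:78331018-78355788 on the minus strand (GRCm38). Identity to Gsta1 was 74.0% for Gsta3 and 66.5% for Gsta4. Gsta4 lies in the same region (chr9:78182774-78209349, plus strand) and Gsta3 at chr1:21240589-21265661 (plus). The mu-class genes form a cluster on chromosome 3, with Gstm5 at chr3:107895821-107898686 (plus) and Gstm3 at chr3:107963696-107969283, Gstm2 at chr3:107981702-107986453 and Gstm1 at chr3:108012255-108017973 (all minus). Gstp1 lies at chr19:4035407-4037985 and Gstt1 at chr10:75783813-75798584, both on the minus strand. All 10 are annotated as protein coding.

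Of all windows of 50 bases in the annotated transcripts of Gsta1, 90.5% also occurred in a transcript of another gene, mainly the predicted genes Gm3776 and Gm10639 and Gsta2. The share was 49.8% for Gsta2, 33.7% for Gstp1 (shared with Gstp2), 28.8% for Gstm3, 18.9% for Gstm1, 5.7% for Gstm2 and 0.3% for Gsta3, and no window of Gsta4, Gstm5 or Gstt1 was shared. Gstm5 overlaps the antisense gene 4933431E20Rik over 178 exon bases, and whether counting used strand is not given in the sources used here. Because the counting tool is not given either, the division of reads between Gsta1, Gsta2 and their copies is uncertain.

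The antioxidant response element core, TGACNNNGC searched on both strands, was looked for in RefSeq promoter windows of GRCm38.p6 reaching from 250 bases before to 50 bases after the gene start. It was present in 12.4% of 32851 windows and in 2 of the 10 windows of these genes (Gsta4 had no window). These are shown with 10 bases on either side and the matching letters in capitals.
Gsta3: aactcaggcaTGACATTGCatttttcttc
Gstm5: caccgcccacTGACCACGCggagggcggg
The Gsta3 sequence lies at chr1:21240454-21240482 on the plus strand, with the motif 121 to 113 bases before the RefSeq gene start. The Gstm5 sequence lies at chr3:107895802-107895830 on the plus strand, with the motif 42 to 34 bases before its RefSeq start. The RefSeq starts differ from the starts of the gene coordinates given above. A match describes letters in the window, and no binding was measured.

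The members differed widely in level between tissues. Levels that can be compared between genes come from the authors' FPKM (fragments scaled to transcript length in kilobases and to library size). In kidney, Gstm1 had the highest median, 543 FPKM over 25 samples (range 323 to 863), followed by Gstp1 at 276 FPKM (199 to 1206). Gstt1, Gstm5 and Gsta2 followed with overlapping ranges and medians of 96.1, 88.9 and 82.1 FPKM. Gstm2 had a median of 52.8 FPKM, Gsta1 35.5, Gsta3 20.6, Gsta4 19.3 and Gstm3 11.2 FPKM. Gsta1 and Gsta2 were detected mainly in kidney: their medians were 1.197 and 0.365 FPKM in heart and 0.186 and 0.127 FPKM in VFAT.

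The other alpha-class genes had a different order. Over all arms, Gsta3 was highest in VFAT, with a median of 56.9 FPKM (9.09 to 117), against 2.13 FPKM in heart (1.12 to 7.79). Gsta4 had medians of 88.5 FPKM in VFAT, 54.0 FPKM in heart and 19.3 FPKM in kidney. Gstm2 was likewise lower in kidney than in heart (118 FPKM) and VFAT (109 FPKM), whose ranges overlapped. Gstt1 had medians of 96.1 FPKM in kidney, 78.2 FPKM in VFAT and 12.2 FPKM in heart. Gstp1 medians lay within a narrower span, 176 FPKM in heart and 193 FPKM in VFAT. Gstm1 and Gstp1 were among the 3 highest members in each tissue by median.

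**Figure D1:**
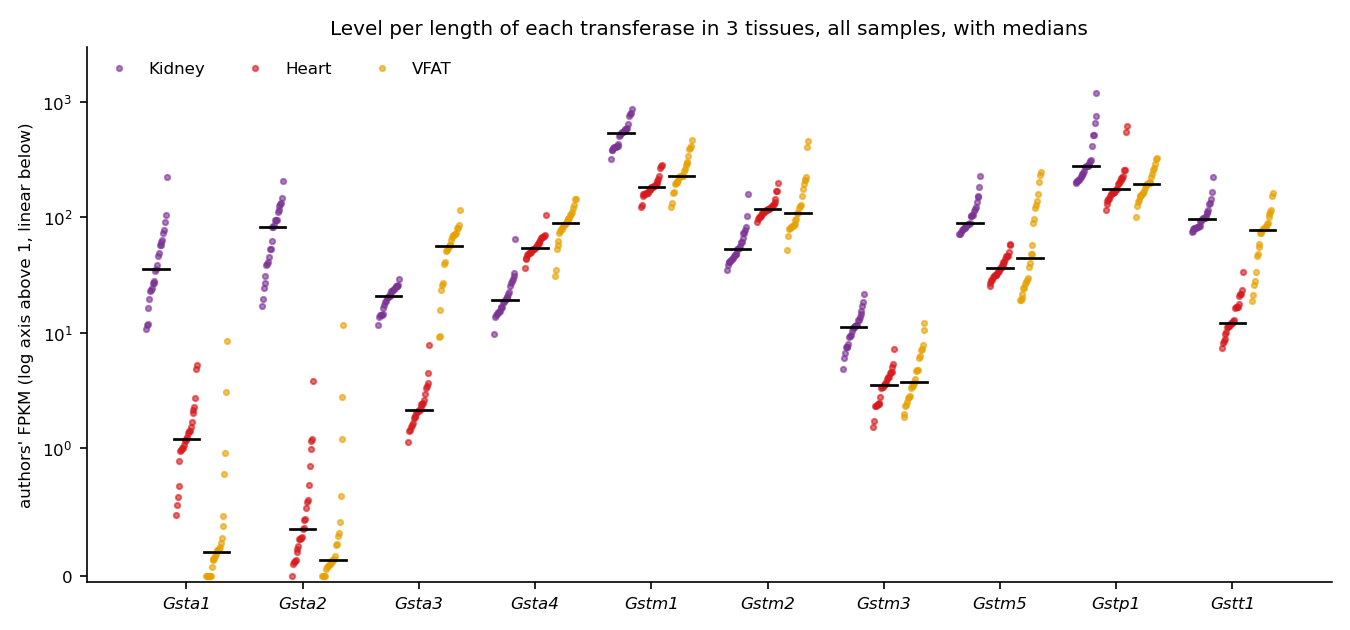
Levels of the 10 genes in kidney, heart and VFAT, as the authors' FPKM on a symmetric log axis. Points are samples and bars are medians over 25 kidney, 25 heart and 24 VFAT samples. Gsta1 and Gsta2 are near 0 in heart and VFAT, and the medians of Gsta3 and Gsta4 over all arms are highest in VFAT.

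Library totals ranged between 1241590 and 16912788 counts for kidney, 2803991 and 12986214 for heart, and 5666563 and 20037187 for VFAT. The tissue markers were present in every sample: summed ventricular myocyte markers were at least 31536 CPM in each heart (counts scaled to library size, with TMM factors computed within the tissue) and summed adipocyte markers at least 3314 CPM in each VFAT sample. Some libraries stood apart. A length index, the mean log2 CPM of the shortest 20% of genes minus that of the longest 20%, was 0.24 and 0.26 in Kidney control cells 4 and Kidney control cells 5 and 0.14, −0.04 and 0.16 in Kidney PNx 3, Kidney PNx 4 and Kidney PNx 5. It was −1.10 and −1.19 in Kidney PNx 1 and Kidney PNx 2 and −1.22 to −1.01 in the Kidney Sham samples. The scrambled-cell kidneys, at −0.97 to −0.20, also lay above the Sham range. So did Kidney NaKtide cells 1 (−0.18), Kidney NaKtide cells 4 (−0.73) and Kidney control cells 3 (−0.57). These libraries stayed in the fit described below that left out 5 kidney libraries. Kidney PNx 3 also held 3711 CPM of summed neutrophil markers, against 1.29 to 2.74 CPM in Kidney Sham samples, and 13348 CPM of summed proximal tubule markers, against 30368 to 36180 CPM in Kidney Sham samples. In VFAT, the sum of 14 epididymis genes ran from 2.80 to 157 CPM in the PNx samples, against 501 to 45000 CPM in the Sham samples. Heart Sham 2 and Heart Sham 3 held 1881 and 5382 CPM of summed proximal tubule markers, against at most 501 CPM in any other heart sample.

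In kidney, with all libraries fitted, partial nephrectomy without cells was accompanied by higher transcript levels across the family. Several of these differences shrank when 5 libraries of raised length index were left out, as given below. With the length index as a covariate only Gsta1 and Gsta2 were called. All 10 genes had a positive log2 fold change, PNx over Sham, and 8 of 10 passed an adjusted p of 0.05 in edgeR's quasi-likelihood test with Benjamini-Hochberg adjustment over 16307 genes. Of all genes tested in this comparison 16.8% passed in either direction and 9.25% as higher in PNx. The median log2 fold change of the 10 genes was 0.86, against 0.05 for all genes tested. Levels in bulk tissue cannot tell more RNA per cell from more cells of the expressing type. Cell markers moved in the same comparison: 6 of 20 proximal tubule markers were called lower and 0 higher, with sums of 13348 to 32964 CPM in PNx kidneys and 30368 to 36180 CPM in Sham kidneys. Of 11 tested tubule injury markers 5 were higher, with sums of 910 to 3490 CPM in PNx kidneys and 721 to 859 CPM in Sham kidneys. Of 12 macrophage markers 6 were higher, with sums of 118 to 1597 CPM in PNx kidneys and 115 to 148 CPM in Sham kidneys. Their part in the transferase values was not tested.

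Gsta1 and Gsta2 rose most. Gsta1 had 57.0, 56.6, 62.8, 46.5 and 92.9 CPM in the PNx kidneys, against 19.2, 11.6, 16.4, 11.4 and 10.7 CPM in the Sham kidneys. Gsta2 had 115, 114, 140, 116 and 184 CPM in the PNx kidneys, against 37.9, 23.5, 32.9, 20.7 and 29.8 CPM in the Sham kidneys. Every PNx kidney lay above every Sham kidney for both genes. How many of all genes separate the groups in this way was not counted, here or for the separations given below. An unadjusted p under 0.05 was found for 6885 of 16307 genes in this comparison. The log2 fold change was 2.18 ± 0.41 (SE) for Gsta1, a 4.53-fold difference with an edgeR adjusted p of 0.00492. For Gsta2 it was 2.20 ± 0.32, a 4.61-fold difference with an edgeR adjusted p of 0.00101.

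The 2 transcripts kept a similar ratio. Gsta1 took 28.6 to 33.5% of the counts of both genes together in the PNx kidneys and 26.4 to 35.6% in the Sham kidneys. The near-identical predicted genes moved with them: Gm3776 averaged 33.7 ± 11.9 CPM in PNx kidneys and 7.79 ± 2.83 CPM in Sham kidneys (SD, n = 5 each), and Gm10639 49.3 ± 10.9 CPM in PNx kidneys and 13.5 ± 2.60 CPM in Sham kidneys. With the counts of all 4 genes summed, the log2 fold change was 2.12 with an edgeR adjusted p of 0.0025.

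The other alpha-class genes rose less. Gsta3 had 91.7, 88.6, 111, 117 and 135 CPM in PNx kidneys, against 93.8, 65.2, 64.2, 52.5 and 61.4 CPM in Sham kidneys, and Sham 1 lay within the PNx range. Its log2 fold change was 0.69 ± 0.17 with an edgeR adjusted p of 0.0183. Gsta4 had 21.9, 19.8, 88.7, 35.7 and 39.9 CPM in PNx kidneys, against 18.5, 17.7, 20.02, 12.6 and 21.2 CPM in Sham kidneys. Its highest value was that of Kidney PNx 3 and its groups overlapped, with a log2 fold change of 1.19 ± 0.30 and an edgeR adjusted p of 0.021.

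Among the mu-class genes, Gstm1, an abundant enzyme of liver and kidney, separated the groups at a smaller fold than Gsta1 or Gsta2. It had 979, 842, 940, 1233 and 1203 CPM in PNx kidneys, against 624, 603, 621, 582 and 637 CPM in Sham kidneys. The log2 fold change was 0.76 ± 0.18, a 1.69-fold difference with an edgeR adjusted p of 0.0173. Gstm3 also did not overlap, with 15.7 to 25.8 CPM in PNx kidneys and 8.24 to 12.8 CPM in Sham kidneys (log2 fold change 0.83 ± 0.28, edgeR adjusted p 0.0476). Gstm2 had 70.4 to 285 CPM in PNx kidneys and 60.9 to 83.8 CPM in Sham kidneys, with a log2 fold change of 0.89 ± 0.30 and an edgeR adjusted p of 0.0452. Gstm5, with 106 to 208 CPM in PNx kidneys and 103 to 117 CPM in Sham kidneys, did not pass (0.54 ± 0.24, edgeR adjusted p 0.0956).

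Gstp1, the pi-class enzyme, had 220, 196, 337, 407 and 616 CPM in PNx kidneys, against 187, 155, 172, 159 and 184 CPM in Sham kidneys. The groups did not overlap, yet the 3 PNx kidneys with the raised length index held the 3 highest values. Its log2 fold change of 1.05 ± 0.37 had an edgeR adjusted p of 0.0506 and was not called. Gstt1, the theta-class enzyme, had 134, 125, 369, 212 and 236 CPM in PNx kidneys, against 146, 128, 121, 118 and 131 CPM in Sham kidneys. Only those same 3 PNx kidneys lay above the Sham range, and the log2 fold change was 0.74 ± 0.22 with an edgeR adjusted p of 0.0341.

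**Figure D2:**
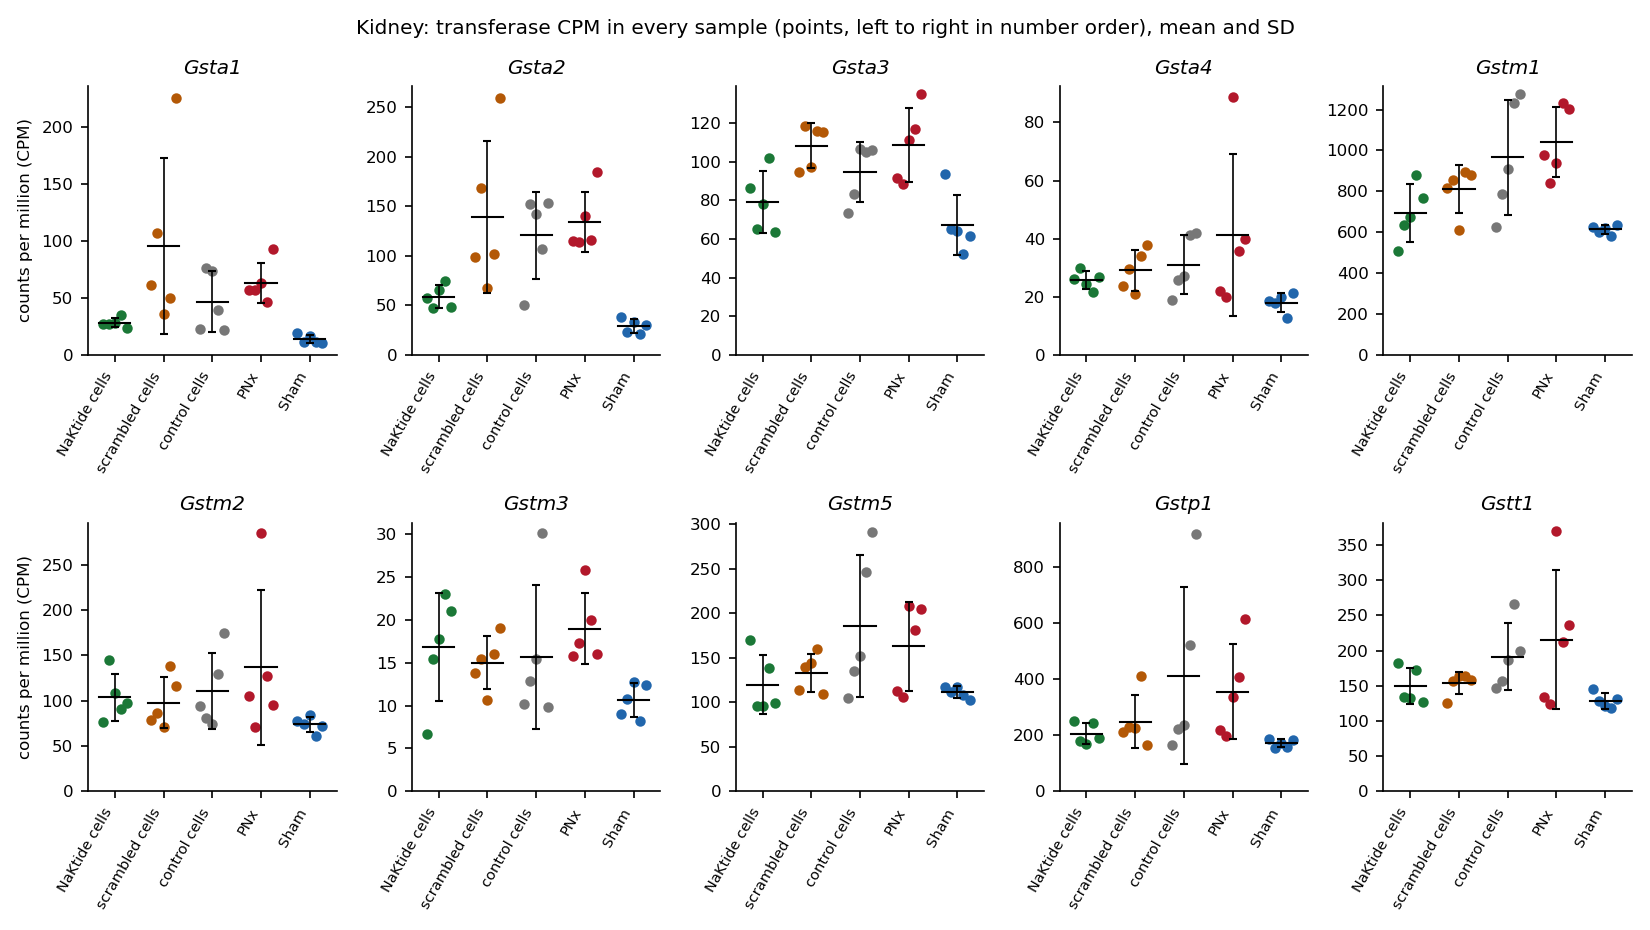
Kidney levels of the 10 genes in CPM, 1 panel per gene, for NaKtide cells, scrambled cells, control cells, PNx and Sham (n = 5 each). Points are samples and bars are means with SD. For Gsta1, NaKtide-cell kidneys hold 24.03 to 34.8 CPM, PNx kidneys 46.5 to 92.9 CPM and Sham kidneys 10.7 to 19.2 CPM.

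These calls fall into 2 sets by how they stood up to the libraries in doubt. Gsta1 and Gsta2 were called in each of the 10 refits that left out 1 PNx or Sham kidney, with log2 fold changes of 1.98 to 2.32 for Gsta1 and 2.04 to 2.32 for Gsta2. With the length index as a covariate they were the only 2 members called, at 2.27 for Gsta1 (edgeR adjusted p 0.0055) and 2.06 for Gsta2 (edgeR adjusted p 0.0017). With Kidney PNx 3, Kidney PNx 4, Kidney PNx 5, Kidney control cells 4 and Kidney control cells 5 left out, Gsta2 remained called at 1.97 (edgeR adjusted p 0.03) and Gsta1 had 2.01 (edgeR adjusted p 0.062). In that fit only 97 of 16957 genes were called in all, against 611 of 16307 with the covariate and 2742 of 16307 with all libraries fitted.

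The other calls were less steady. Without Kidney PNx 3, which had the neutrophil markers, Gsta4 had a log2 fold change of 0.67 (edgeR adjusted p 0.115), Gstm2 0.42 (0.252), Gstm3 0.68 (0.171) and Gstt1 0.44 (0.161). In that fit 4 members and 307 of 16470 genes were called. Without Kidney Sham 4 only Gsta1 and Gsta2 were called, while Gsta3, Gsta4 and Gstm1 had adjusted p of 0.0548, 0.0611 and 0.0502. Gstm2, Gstm3 and Gstt1 were called only in the refits without Kidney PNx 1 or without Kidney PNx 2. With the 5 libraries left out, Gsta4 had 0.19, Gstp1 0.27, Gstm2 0.24, Gstm5 −0.031 and Gstt1 −0.00092 on the log2 scale, none of them called. Whether the library differences produce those members' values was not tested.

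**Figure D3:**
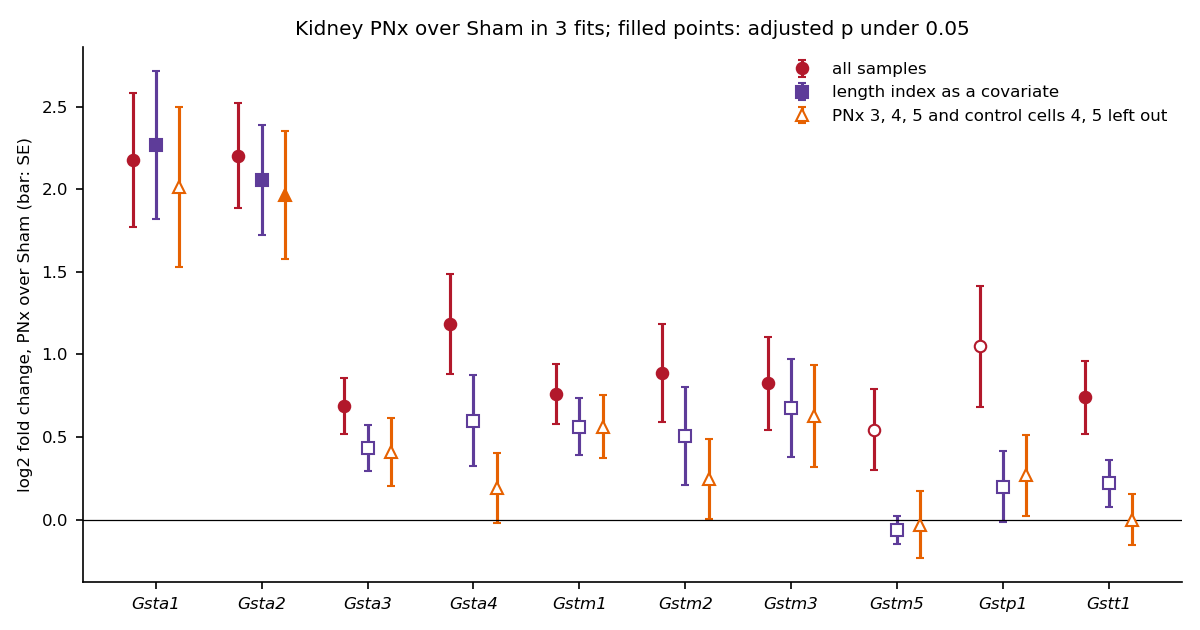
Log2 fold change of each gene in kidney, PNx over Sham, in 3 edgeR fits: all libraries, length index as a covariate, and 5 libraries left out. Bars are standard errors. Gsta1 and Gsta2 stay near 2 in all 3 fits, while Gstm5 and Gstt1 lie near 0 in the last.

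The kidneys of mice given scrambled cells also had higher Gsta1, Gsta2 and Gsta3 than Sham kidneys. Gsta1 had 61.3, 107, 35.6, 49.8 and 226 CPM in scrambled-cell kidneys, and Gsta2 had 99.1, 168, 67.3, 102 and 259 CPM there, all above the Sham kidneys given above. The log2 fold changes over Sham were 2.78 ± 0.41 for Gsta1 and 2.26 ± 0.32 for Gsta2, each with an edgeR adjusted p of 0.000964. Gsta3 rose by a log2 fold change of 0.68 ± 0.17 (edgeR adjusted p 0.024), a call lost on leaving out any of 6 libraries, scrambled cells 2 or 5 or Sham 2, 3, 4 or 5. Gsta4, the other alpha-class gene, had 0.69 and was not called (edgeR adjusted p 0.183). These 3 of 10 members compare with 3.61% of all genes called in either direction and 1.72% called higher, and the members' median log2 fold change was 0.51, against 0.04 for all genes. Kidney scrambled cells 5, with the highest Gsta1 and Gsta2, held 15262 CPM of summed proximal tubule markers. Without it Gsta1 and Gsta2 were still called.

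With control cells the values were more scattered. Gsta1 had 23.1, 76.6, 73.4, 39.1 and 22.2 CPM and Gsta2 49.9, 153, 142, 107 and 153 CPM in control-cell kidneys, again above every Sham kidney. Gsta1 took 12.7% of the summed Gsta1 and Gsta2 counts in Kidney control cells 5, on 18 Gsta1 and 124 Gsta2 counts in the library with the smallest total (1241590) and the highest length index in kidney, and 26.7 to 34.1% in the other 4 control-cell kidneys. Gsta2 was the 1 of 10 members called over Sham, at 2.05 ± 0.32 (edgeR adjusted p 0.0164), in a comparison in which 0.0552% of all genes were called and 0.0491% called higher. That call was lost when control cells 5 or any of Sham 2, 3, 4 and 5 was left out (adjusted p 0.0643 to 0.124). With Kidney PNx 3, 4 and 5 and Kidney control cells 4 and 5 left out it was called at 1.98 (edgeR adjusted p 0.0444). Gsta1 had 1.79 ± 0.41 (edgeR adjusted p 0.0655), and the members' median was 0.69, against −0.01 for all genes.

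In kidneys of mice given NaKtide cells, Gsta1 and Gsta2 lay between the PNx and Sham kidneys without overlapping either. The share of all genes that did so was not counted. Gsta1 had 27.5, 26.7, 28.2, 34.8 and 24.03 CPM and Gsta2 57.2, 47.7, 65.9, 74.7 and 47.9 CPM there. Against PNx, the log2 fold change was −1.16 ± 0.39 for Gsta1 (2.23-fold lower) and −1.19 ± 0.31 for Gsta2 (2.28-fold lower), both with an edgeR adjusted p of 0.258. Against Sham, which is not an independent comparison since the NaKtide samples are shared, it was 1.02 ± 0.40 for Gsta1 (2.03-fold, edgeR adjusted p 0.745) and 1.01 ± 0.31 for Gsta2 (2.02-fold, edgeR adjusted p 0.712). None of these passed, and a p above the threshold does not show that the arms were alike.

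With all libraries fitted, all 10 members had a negative log2 fold change in NaKtide-cell kidneys against PNx, from −1.19 to −0.17, with a median of −0.55, against 0.01 for all genes. No member was called by edgeR (0% of all genes) or by DESeq2, while 7 of 10 members and 3116 genes of 16307 had an unadjusted p under 0.05. Gstm1 had 510 to 880 CPM in NaKtide-cell kidneys (−0.58 ± 0.18 against PNx, edgeR adjusted p 0.258), and Gstp1 had 168 to 249 CPM (−0.78 ± 0.37, edgeR adjusted p 0.258). With Kidney PNx 3, 4 and 5 and Kidney control cells 4 and 5 left out, 5 members were positive and 5 negative against PNx, with a median of −0.0084. Gsta1 had −1.03, Gsta2 −0.98, Gstm1 −0.41 and Gstp1 −0.03 in that fit, none of them called. Against Sham, 0 of 10 members were called by edgeR (0% of all genes) or DESeq2, and 3 members and 1015 genes had an unadjusted p under 0.05.

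The test of the insert itself sets NaKtide cells against scrambled cells. Gsta1 was 3.39-fold lower with NaKtide cells (log2 fold change −1.76 ± 0.40, edgeR adjusted p 0.373) and its groups did not overlap. Gsta2 had −1.25 ± 0.31 (edgeR adjusted p 0.489), and its groups overlapped because scrambled cells 3 held 67.3 CPM. No member was called by edgeR (0% of all genes), DESeq2 called 1, and 3 members and 819 genes had an unadjusted p under 0.05. The remaining kidney comparisons had no called member by edgeR or DESeq2, with 0% of all genes called in each. NaKtide cells against control cells had 4 members and 2102 of 16307 genes at an unadjusted p under 0.05. Scrambled cells against PNx had 1 member and 2140 genes, and control cells against PNx 0 members and 1049 genes.

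Summed over the 10 genes, the authors' FPKM were 1080 ± 140 with NaKtide cells, 1344 ± 222 with scrambled cells, 1694 ± 712 with control cells, 1684 ± 395 in PNx and 905 ± 51.5 in Sham kidneys (SD, n = 5 each). The sum is weighted to Gstm1 and Gstp1 and carries their spread in the PNx and control-cell arms.

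Some other genes of glutathione metabolism were called higher in PNx kidneys, and their counts stand beside the 9.25% of all genes called higher there. Among 16 tested further transferases 5 were called higher and 0 lower, led by Gstp3 (2.36 ± 0.60, edgeR adjusted p 0.0198), the microsomal transferase Mgst1 (0.72 ± 0.18, 0.0205), Gstm7 (0.72 ± 0.20, 0.0291) and Mgst3 (1.02 ± 0.33, 0.0424). Their median log2 fold change was 0.46. For glutathione synthesis and recycling, 4 of 17 were higher and 0 lower: Pgd and G6pdx, which make NADPH in the pentose phosphate pathway, and Slc7a11 and Slc3a2, the 2 chains of the cystine importer. Gpx7 was the 1 of 7 glutathione peroxidases called, at a log2 fold change of 1.41. In mercapturate processing and export, 2 of 18 were higher, the conjugate exporter Abcc3 (2.06) and Ggt6 (0.70), and 0 were lower. The shares of the peroxidase and mercapturate lists lay near that of all genes.

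Of 28 NRF2 targets outside the transferases, 10 were higher and 0 lower, with a median of 0.34. The carbonyl reductases Cbr3 (2.39 ± 0.40, edgeR adjusted p 0.003) and Cbr1 (1.55 ± 0.31, 0.00818) and the sulfiredoxin Srxn1 (0.61 ± 0.11, 0.00376) had the lowest p-values. The lists overlap, since Pgd, G6pdx, Slc7a11 and Abcc3 stand in 2 of them. Among 16 tested regulators 1 was higher and 4 lower, the fallers being Ppara (−1.47), the NRF2 competitor Bach1 (−1.26), Cul3 (−0.90), part of the ligase that degrades NRF2, and Hnf4a (−0.51). Nfe2l2 itself had −0.38 (edgeR adjusted p 0.0984) and its inhibitor Keap1 0.31 (0.0979). With the 5 libraries in doubt left out, 0 genes of every one of these lists were called. Without Kidney PNx 3, 5 NRF2 targets and 2 synthesis genes were called higher, and 0 genes of the other lists.

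The genes whose log2 CPM most resembled that of Gsta2 over the 25 kidney samples, among 10873 genes, were Nqo1 (Pearson r 0.863), Slc38a3 (0.860), Tacc3 (0.850), Gc (0.843) and Srxn1 (0.840). Nqo1 is a quinone reductase and, like Srxn1, stands in the NRF2 target list. Among those most like Gstm1 were Pttg1 (0.890), Magix (0.873), Pgd (0.871) and Aen (0.869). These values describe samples that share arms and library differences and carry no test.

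In heart, no member was called between PNx and Sham by edgeR or DESeq2, with 9 of 10 tested (Gsta2 was too low) and 0.126% of all genes called. 1 member and 2387 of 15091 genes had an unadjusted p under 0.05, and 8 of 9 members had a negative log2 fold change, with a median of −0.28, against −0.0034 for all genes. With Heart Sham 2 and Heart Sham 3 left out, 5 were positive and 4 negative, with a median of 0.06. Gstp1 had 104, 99.8, 119, 156 and 134 CPM in PNx hearts, against 137, 330, 383, 123 and 108 CPM in Sham hearts. Its log2 fold change of −0.81 ± 0.27 (1.75-fold lower, edgeR adjusted p 0.178) rests on Heart Sham 2 and Heart Sham 3. Those samples held the proximal tubule markers and had length indices of 0.23 and 0.06, against −0.79 to −0.54 in the other Sham hearts, and Heart Sham 3 had the smallest total of the hearts (2803991 counts). The part of either in the Gstp1 values was not tested. Without both samples the log2 fold change was −0.02 (edgeR adjusted p 0.99), and without Heart Sham 5 it was called at −0.97 (edgeR adjusted p 0.0439).

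The cell arms in heart gave no call either. With scrambled cells all 9 tested members were lower than in PNx hearts, with a median of −0.36. Of these, 0 were called by edgeR (1.17% of all genes called) or DESeq2. An unadjusted p under 0.05 was found for 2 of them and for 3757 of 15091 genes. Gstm2 had 127 to 143 CPM in scrambled-cell hearts and 160 to 195 CPM in PNx hearts, and Gstp1 72.5 to 93.5 CPM in scrambled-cell hearts and 99.8 to 156 CPM in PNx hearts, so both groups were apart without a call (edgeR adjusted p 0.145 and 0.208). The length index did not overlap either, at −1.24 to −0.95 in scrambled-cell hearts and −0.77 to −0.10 in PNx hearts, and its part in these values was not tested. NaKtide cells and control cells against PNx, and NaKtide cells against scrambled cells, had 0 members called by edgeR or DESeq2 and 0% of all genes called. At an unadjusted p under 0.05, NaKtide cells against PNx had 1 member and 1249 genes. Control cells against PNx had 0 members and 1261 genes, and NaKtide cells against scrambled cells 4 members and 903 genes.

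In VFAT, PNx against Sham gave 4 of 8 tested members as called, 3 higher and 1 lower (Gsta1 and Gsta2 were too low to test). Of all genes 13% were called, 4.83% higher and 8.18% lower, and the members' median log2 fold change was 0.79, against 0.01 for all genes. Gsta3 had 270, 360, 379, 438 and 330 CPM in PNx VFAT, against 48.5, 199, 135, 46.9 and 81.0 CPM in Sham VFAT. Gstt1 had 148, 271, 164, 107 and 141 CPM in PNx VFAT, against 39.2, 86.6, 60.9, 34.2 and 46.2 CPM in Sham VFAT. Neither gene's groups overlapped, in a comparison in which 4780 of 17552 genes had an unadjusted p under 0.05. The log2 fold changes were 1.80 ± 0.36 for Gsta3 (3.48-fold, edgeR adjusted p 0.00249) and 1.64 ± 0.35 for Gstt1 (3.11-fold, edgeR adjusted p 0.00437).

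Gstm1 rose by a log2 fold change of 0.75 ± 0.25 (edgeR adjusted p 0.049), and leaving out any of 9 of the 10 libraries ended that call. Gsta4 had 0.84 ± 0.28 (edgeR adjusted p 0.050) and was not called. Gstm2 moved the other way. It had 244, 409, 168, 170 and 168 CPM in PNx VFAT, against 821, 136, 388, 908 and 441 CPM in Sham VFAT, with a log2 fold change of −1.22 ± 0.39 (2.32-fold lower, edgeR adjusted p 0.0419). That call was lost without any of VFAT PNx 1, 3, 4 and 5 or Sham 1, 4 and 5 (−0.94 to −1.29).

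Gsta3, Gstt1 and Gstm2 moved with the epididymis genes of the Sham samples. The Sham sample with the smallest epididymis sum, VFAT Sham 2 at 501 CPM, had the highest Gsta3 and Gstt1 and the lowest Gstm2 of its group, and the 2 with the largest sums, VFAT Sham 1 and VFAT Sham 4, had the lowest Gsta3 and Gstt1 and the highest Gstm2. Gstm1 did not follow that order, with 284 CPM in Sham 2, 235 CPM in Sham 1 and 393 CPM in Sham 4. All 14 epididymis genes were called lower in PNx VFAT, where up to 9 of them were at 0 in a sample, and none was at 0 in Sham VFAT. The summed adipocyte markers were 22093 to 27280 CPM in PNx VFAT and 3314 to 27808 CPM in Sham VFAT. Summed markers of hepatocytes were 3981 to 6559 CPM in PNx VFAT and 475 to 4359 CPM in Sham VFAT, and those of macrophages 663 to 1422 CPM in PNx VFAT and 310 to 657 CPM in Sham VFAT. The part of these cell markers in the results was not tested. With VFAT Sham 2 as the only Sham sample, assumed to vary like the other arms, Gsta3 had a log2 fold change of 0.84, Gstt1 0.95, Gstm1 0.88 and Gstm2 0.78, the last reversed, each with an edgeR adjusted p of 0.86, and 0 of 18979 genes were called. The part of epididymis RNA in these results was not tested beyond that fit.

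**Figure D4:**
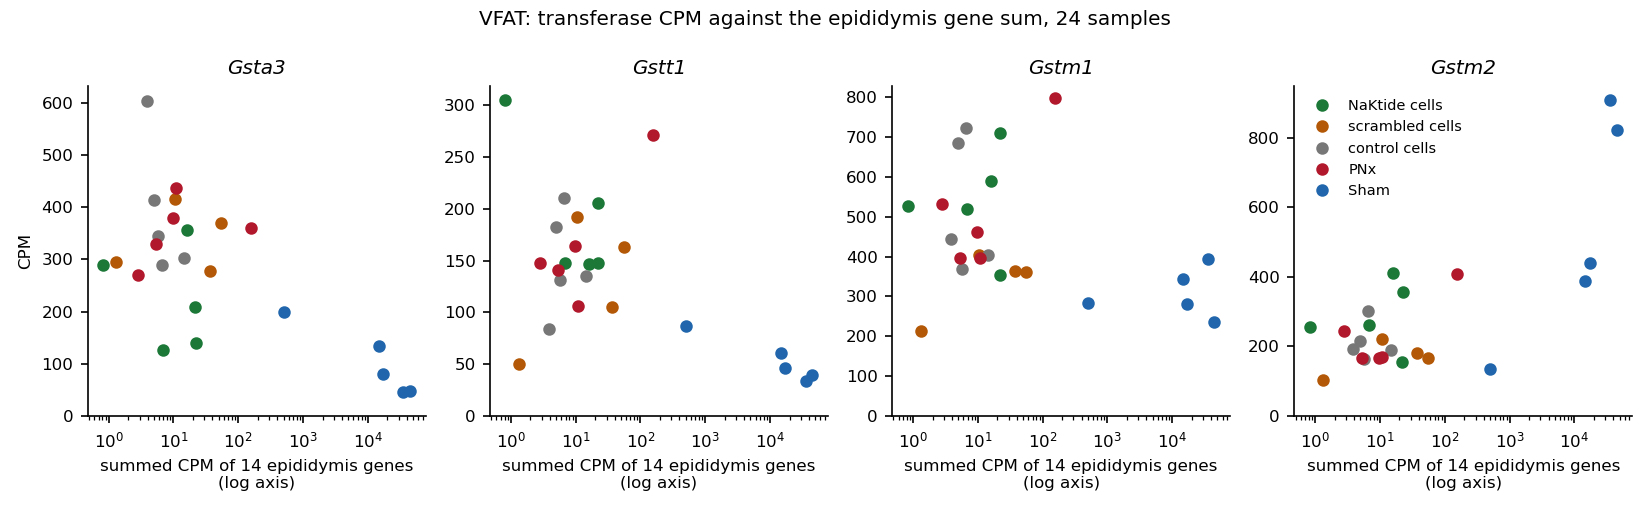
CPM of Gsta3, Gstt1, Gstm1 and Gstm2 in VFAT against the summed CPM of 14 epididymis genes on a log axis. Points are the 24 samples of all 5 arms (n = 5 each, 4 for scrambled cells). PNx samples lie at 2.80 to 157 CPM of the sum and Sham samples at 501 to 45000 CPM, and within Sham, Gsta3 and Gstt1 are highest and Gstm2 lowest at 501 CPM.

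Among the other VFAT comparisons no member was called by edgeR or DESeq2. The share of all genes called was 1.82% for scrambled cells against PNx, 2.36% for NaKtide cells against scrambled cells and 0% for NaKtide cells and for control cells against PNx. The members at an unadjusted p under 0.05 numbered 1, 2, 0 and 0 of 8, in that order. Among all 17552 genes tested the counts were 2822, 3412, 652 and 442. VFAT scrambled cells 2 and VFAT scrambled cells 4 held 42633 and 27668 CPM of summed skeletal muscle markers, and VFAT scrambled cells 3 held 50894 CPM of summed markers of pancreatic acinar cells. The members' median log2 fold change was −0.42 for scrambled cells against PNx and 0.63 for NaKtide cells against scrambled cells. With those 3 samples left out, and the single remaining scrambled-cell sample assumed to vary like the other arms, the medians were −0.23 and 0.12 over 10 members, and 0 genes were called in either comparison. Gsta1 and Gsta2 were near the detection limit in VFAT except in VFAT control cells 3, with 3.50 CPM of Gsta1 and 3.89 CPM of Gsta2, and VFAT control cells 5, with 9.47 and 16.1 CPM. Those samples held 8777 and 13696 CPM of the summed markers of hepatocytes. The other control-cell VFAT samples held 3474 to 7526 CPM of them, with Gsta1 at 0.148 to 0.199 CPM. The part of these markers in the Gsta1 and Gsta2 values was not tested.

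Among the other gene lists, PNx VFAT had 3 higher and 1 lower of 16 further transferases, 0 higher and 4 lower of 17 synthesis and recycling genes, 2 higher and 1 lower of 7 peroxidases, 2 higher and 3 lower of 18 mercapturate genes, 3 higher and 2 lower of 28 NRF2 targets and 0 of 16 regulators. Of all genes 4.83% were called higher and 8.18% lower in that comparison, and no list was tested against those shares. With Sham 2 as the only Sham sample, 0 genes of these lists were called. In heart, 1 of 13 mercapturate genes was lower and 0 genes of the other lists were called.

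The surgery effect was also compared between tissues directly, in a fit over all 15 groups of 19180 genes. Kidney differed from heart for 3 of 10 members, with 12% of all genes called and 8.28% called higher. These were Gstp1 (difference of log2 fold changes, kidney minus heart, 1.75 ± 0.43, edgeR adjusted p 0.0149), Gsta4 (1.39 ± 0.35, 0.0164) and Gstm1 (0.96 ± 0.28, 0.0249). Gsta1 had 2.54 ± 0.91 (edgeR adjusted p 0.0533) and Gsta2 3.06 ± 1.18 (0.0697). With Heart Sham 2 and Heart Sham 3 left out, or Kidney PNx 3, 4 and 5 left out, 0 of the 10 members were called. The single omission of Heart Sham 2 also left 0 members called, and that of Heart Sham 3 left 1.

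Kidney differed from VFAT for 1 of 10 members, Gstm2, with a difference of 2.01 ± 0.41 (edgeR adjusted p 0.000434), and 11.7% of all genes were called, 8.03% higher. With VFAT Sham 1, 3, 4 and 5 left out it was 0.04 and not called. Gsta3 had the opposite sign, −1.17 ± 0.44 (edgeR adjusted p 0.0656).

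**Figure D5:**
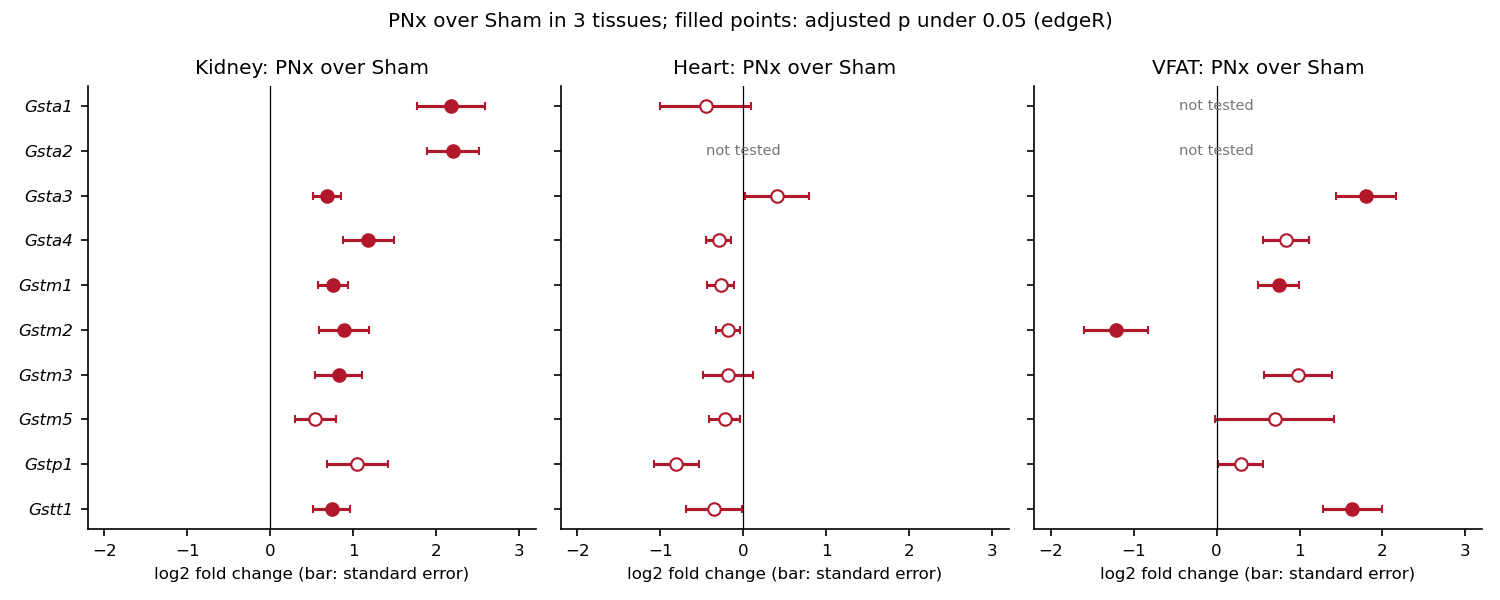
Log2 fold change, PNx over Sham, of each gene in kidney, heart and VFAT, with standard errors. Filled points passed an edgeR adjusted p of 0.05 and open points did not. Gsta1 and Gsta2 stand at 2.18 and 2.20 in kidney, and Gstm2 at 0.89 in kidney and −1.22 in VFAT.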

How the data were processed

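RNA from flash-frozen heart, kidney and VFAT was sequenced as paired reads of 50 bases. Raw read counts per gene were deposited by the authors and were tested here. The FPKM values were also deposited by the authors and give the levels per length. Per the submitters' processing notes, Trimmomatic 0.38, HISAT2 2.1.0 and DESeq2 1.20.0 and 1.20.1 were used on GRCm38. Not given in the sources used here are the counting tool, strand setting and annotation.

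The 76 libraries gave 74 samples, because the second library of number 3 in Kidney Sham and in VFAT scrambled cells was summed with the first. Counts were tested with edgeR 4.0.16 (R 4.3.3): TMM scaling, filterByExpr, a quasi-likelihood test, 1 fit per tissue over 5 arms, and Benjamini-Hochberg adjustment over all genes tested. Calls required an adjusted p below 0.05. DESeq2 1.42.0 was an alternative, and so were other size factors, no filter, a replicate block, summed near-identical genes, a length covariate and libraries left out. CPM are TMM-scaled. Differences between tissues came from 1 fit over 15 groups, in which libraries were treated as independent. The fits were checked on simulated counts.

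All 10 members are named. From the pathway lists, counts are given in each tissue and, in kidney, up to 4 called genes per list by lowest p, and for Gsta2 and Gstm1 the 5 most similar genes by Pearson r, 1 of which is not reported here. The members and lists were chosen with earlier results of these data known. The symbol Gsta13 had no match in the table. Transcripts and coordinates are GENCODE M21 (GRCm38) and promoters RefSeq GRCm38.p6.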

Additional observations from a re-analysis of the deposited data

Results flagged for a closer look

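Among 135 sets of 4 or 5 samples, 1 per gene and group, 10 held a sample far from the others by Dixon's criterion, which chance gives in about 1 in 20 sets. In heart, Gsta1 stood high in PNx 4 (2.097 CPM, others 0.770 to 1.08), control cells 4 (3.74 CPM, others 0.372 to 1.28) and Sham 3 (4.09 CPM, others 0.905 to 1.52). Gsta3 stood high in Heart Sham 3 (15.9 CPM, others 6.47 to 8.38), the sample with 5382 CPM of summed proximal tubule markers. Gstt1 stood high in Heart control cells 1 (26.8 CPM, others 12.5 to 15.7).

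In kidney, Gstm2 stood high in PNx 3 (285 CPM, others 70.4 to 127), Gstm3 in control cells 4 (30.2 CPM, others 9.88 to 15.4) and Gstp1 in scrambled cells 4 (411 CPM, others 166 to 228). Gstm1 stood low in scrambled cells 3 (610 CPM, others 818 to 894) and Gstt1 in scrambled cells 1 (126 CPM, others 157 to 164).

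With all libraries fitted, the effect of PNx differed between tissues for 4 genes by the test of the difference itself. On the log2 scale, kidney minus heart, it was 1.39 for Gsta4, 0.96 for Gstm1 and 1.75 for Gstp1. For Gstm2, kidney minus VFAT, it was 2.01.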

How the results depend on the processing

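For PNx against Sham in kidney, 8 members and 2742 of 16307 genes were called with all libraries fitted. Of the members, 5 were called with no expression filter, 3 with only the 2 arms fitted and 4 with PNx 3 and scrambled cells 5 left out. With the length index as a covariate 2 were called (611 of 16307 genes), and with 5 libraries left out 1 (97 of 16957 genes). In those last 2 fits the calls fell over all genes as well as among the members. The sign reversed for Gstm5 with the length covariate (−0.061) and with the 5 libraries left out (−0.031), and for Gstt1 with those libraries left out (−0.000921). With only the 2 arms compared, 2 members were called for NaKtide cells and 5 for scrambled cells against Sham. For control cells against Sham the count was 4 with DESeq2, 0 with only the 2 arms and 0 with the 4 near-identical genes summed, and for NaKtide against scrambled cells it was 1 with DESeq2. Heart scrambled cells against PNx gave 2 with only the 2 arms. VFAT PNx against Sham gave 4 members and 2283 of 17552 genes with all libraries fitted. It gave 2 members with no filter (2076 of 32358 genes), 2 with the replicate block (1654 of 17552) and 2 with only the 2 arms (384 of 15189). With Sham 1, 3, 4 and 5 left out, Gstm2 reversed to 0.78.

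The kidney minus heart difference had 5 calls with DESeq2, and 0 with only 4 groups fitted, with Heart Sham 2 and 3 left out, or with Kidney PNx 3, 4 and 5 left out. Kidney minus VFAT had 0 with only 4 groups, 2 with Kidney PNx 3, 4 and 5 left out and 0 with VFAT Sham 1, 3, 4 and 5 left out. The fits that left out named heart or VFAT samples, Kidney PNx 3, 4 and 5, or Kidney PNx 3 with scrambled cells 5, and the sum of 4 near-identical genes, were chosen after seeing the data. The cause was not tested.

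Leaving out 1 library at a time gave 2 to 10 called members for kidney PNx against Sham. Calls over all genes moved too, with 307 of 16470 genes called without Kidney PNx 3. In kidney the range was 2 to 3 for scrambled cells and 0 to 6 for control cells against Sham. For PNx against Sham it was 0 to 1 in heart and 2 to 4 in VFAT. Kidney minus heart had 0 to 5, kidney minus VFAT 1 to 3, and every other comparison 0 to 0. Between arms of a tissue the replicate numbers did not pair the samples throughout (correlations of same-numbered deviations −0.75 to 0.72). The correlation was over 0.1 for 4 of 5 pairs in Kidney control cells against PNx and in Heart NaKtide cells against PNx. The same number gave the highest correlation in 1 and 2 of those pairs. Numbers 4 and 5 had a raised length index in both of those kidney arms. Same-numbered libraries of different tissues were not checked, which bears on the kidney minus heart and kidney minus VFAT tests. With the replicate block 7 members were called for kidney PNx against Sham. The order of the 3 tissues by mean Sham level was the same in FPKM and in CPM per kilobase for 10 of 10 members. That check did not cover the order of genes within a tissue. Nor did it cover the medians over all arms, whose order differs for some members, among them Gsta4 and Gstp1. Depth limits Gsta1 and Gsta2 outside kidney.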
